A study of Mus musculus with 21 samples.

Results

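The enzymes that burn fatty acids in liver mitochondria, and the enzymes that handle the ketone bodies made from them, were followed through 33 genes in livers of mice fed a high-fat diet with or without quercetin, a plant flavonoid. The genes were chosen by pathway role, but with earlier results of these data known, so counts over the list are descriptions without a test. Every listed gene was looked up by its name in the array files among non-control spots, and the brightest probe stood for it. All 33 were found and measured, among 19718 genes tested. Their transcripts averaged slightly lower in quercetin-fed livers, no single gene passed the test after adjustment, and the list's margin depended on how the arrays were scaled.

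All mice were adult C57BL/6J males that first ate a normal-fat diet for 3 weeks, then a high-fat diet for 12 weeks, and were fasted for 2 to 4 hours before the liver was taken. The high-fat diet of the HF-Q group (10 arrays) held 0.33% (w/w) quercetin, and that of the HF group (11 arrays) held none. Each array came from 1 mouse: 200 ng of its liver RNA was labelled with Cy5 and set against a Cy3-labelled pool of all samples, without a dye swap. The study had 24 mice, and the authors excluded 3 arrays for uneven hybridisation. No group without the high-fat diet was part of the comparison, so every value below describes quercetin on top of that diet. In whole liver, fewer cells of a type and less RNA per cell cannot be told apart.

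Fatty acids are activated to acyl-CoA at outer membranes, pass into the matrix as carnitine esters, and are shortened there by repeated rounds of dehydrogenation, hydration, a further dehydrogenation and thiolysis. Electrons from the acyl-CoA dehydrogenases reach ubiquinone through the electron transfer flavoprotein, and in hepatocytes much of the acetyl-CoA leaves as the ketone bodies acetoacetate and 3-hydroxybutyrate. Many of these genes are textbook targets of the fatty acid receptor PPARalpha, which binds direct repeats of the letters AGGTCA spaced by 1 base, and fasting induces them in liver.

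The arrays lay on 3 slides, which carried 4, 2 and 4 HF-Q arrays and 3, 4 and 4 HF arrays. The liver channel stood well above background for 44.2% to 51.3% of an array's probes. All 7 hepatocyte markers were measured above background, with a median HF-Q minus HF difference of 0.0023 on the log2 scale and none at an unadjusted p under 0.05 in limma. Among markers of 8 other cell types none had an adjusted p under 0.05 in limma, and Hba-a1 of red blood cells, at -0.24 ± 0.12 (SE), had an unadjusted p of 0.0486, the 1 under 0.05. Markers of pancreatic acinar cells stood apart in 2 HF livers: the mean log2 ratio of the 3 markers measured, of 6 listed, was 1.39 in HF replicate 5 and 1.95 in HF replicate 11, against -0.88 to -0.14 in the other 19 livers. HF-Q replicate 10 and HF replicate 2 resembled the opposite diet in Cyp2b10, the classical target of the xenobiotic receptor CAR: HF-Q replicate 10 had a log2 ratio of 0.62, against -1.81 to -0.91 in the other HF-Q livers, and HF replicate 2 had -1.96, against -0.096 to 1.87 in the other HF livers. HF replicates 5 and 11 are called the acinar-high pair, and HF-Q replicate 10 with HF replicate 2 the Cyp2b10 pair. Counts over the list are given with and without each pair.

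Promoter letters from RefSeq (build GRCm38.p6) were at hand for 27 of the 33 genes, counting 250 bases before to 50 bases after each start. The half-site AGGTCA, on either strand, stood in 6 of the 27 genes (22.2%), against 18.1% of 27025 genes. The exact repeat AGGTCANAGGTCA, whose letters contain the half-site, stood in 0 of the 27, against 0.048% of all genes, and a version with at most 2 mismatches stood in 4 of the 27 (14.8%), against 4.40% of all genes. In 7 genes a match lay wholly within the 250 bases before a start. Of these, 5 are printed here, picked to cover different steps of the pathway, and those of Acadvl and Slc27a2 are not shown. The repeat of Slc25a20 lies after the start and that of a second Pcca start reaches past it, so neither is printed. Each is printed 5' to 3' along the gene's own strand up to the base before the start, with the matching letters in capitals. Acadm (chr3:153944644-153944893, minus strand) holds the half-site in reverse 249 bases before the start. Cpt1a (chr19:3323051-3323300, plus strand) holds it in reverse 94 bases before the start. In Pcca (chr14:122484115-122484364, plus strand) the reverse half-site lies 197 bases before the start. Echs1 (chr7:140116422-140116671, minus strand) holds the repeat with 2 mismatches 83 bases before the start. In Etfa (chr9:55512244-55512493, minus strand) a reverse repeat with 2 mismatches lies 77 bases before the start. A match is a description of letters and no measured binding site.
Acadm: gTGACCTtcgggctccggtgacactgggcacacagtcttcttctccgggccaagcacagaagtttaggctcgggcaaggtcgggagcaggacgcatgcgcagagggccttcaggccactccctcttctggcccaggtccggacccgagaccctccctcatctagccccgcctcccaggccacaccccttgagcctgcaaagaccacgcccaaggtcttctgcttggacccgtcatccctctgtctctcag
Cpt1a: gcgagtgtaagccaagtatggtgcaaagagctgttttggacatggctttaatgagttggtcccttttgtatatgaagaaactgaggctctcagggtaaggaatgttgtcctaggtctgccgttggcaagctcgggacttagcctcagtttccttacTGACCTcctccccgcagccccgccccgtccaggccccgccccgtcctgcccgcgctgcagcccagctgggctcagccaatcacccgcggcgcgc
Pcca: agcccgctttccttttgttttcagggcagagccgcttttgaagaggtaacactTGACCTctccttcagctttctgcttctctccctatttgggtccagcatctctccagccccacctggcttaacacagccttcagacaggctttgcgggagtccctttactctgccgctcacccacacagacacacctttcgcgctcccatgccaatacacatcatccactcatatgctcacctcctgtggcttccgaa
Echs1: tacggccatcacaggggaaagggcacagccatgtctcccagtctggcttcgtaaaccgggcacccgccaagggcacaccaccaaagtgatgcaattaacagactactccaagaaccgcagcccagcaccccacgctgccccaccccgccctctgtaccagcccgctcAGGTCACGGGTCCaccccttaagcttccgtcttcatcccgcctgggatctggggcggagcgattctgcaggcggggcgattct
Etfa: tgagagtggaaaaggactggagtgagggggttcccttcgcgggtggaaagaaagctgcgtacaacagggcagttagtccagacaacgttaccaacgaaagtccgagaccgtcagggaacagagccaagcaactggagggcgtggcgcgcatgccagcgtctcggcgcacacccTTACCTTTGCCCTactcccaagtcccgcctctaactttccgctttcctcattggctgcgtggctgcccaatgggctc

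Taken gene by gene, 31 of the 33 (93.9%) had a lower mean in HF-Q than in HF livers, with a median difference of -0.064 on the log2 scale. Of all 19718 genes 53.0% were lower, with a median of -0.0043. Where each array was only centred on its median, 18 of the 33 were lower, the median of the 33 was -0.010 and that of all genes was 0.024, so the count of lower genes depends on the scaling while the list's median lay below that of all genes under both. No member had an adjusted p under 0.05 in limma with Benjamini-Hochberg adjustment, and neither did any other gene (0 of 19718, 0%). At an unadjusted p under 0.05, there were 8 of the 33 (24.2%), all lower in HF-Q, against 5.93% of all genes in either direction, 2.91% lower and 3.02% higher. Of the 1324 genes at least as bright as the median member, 16.5% had an unadjusted p under 0.05 and 56.3% were lower. All 8 members with such a p were at least as bright as the median member, and no dimmer member had one. The 16.5% therefore belongs beside the brighter members, not beside the 24.2% of the whole list. The same count of members was 7 with an intensity trend and robust variances and 11 with array weights, both in limma, beside 5.74% and 8.88% of all genes. It moved with single livers. Leaving out HF replicate 5 gave 3 such members, beside 5.14% of all genes. Leaving out HF-Q replicate 6 or HF replicate 10 gave 4, beside 6.01% and 5.78%. Leaving out HF-Q replicate 1, 2 or 3 or HF replicate 7 gave 5, beside 4.9%, 5.5%, 5.84% and 5.43%. Leaving out HF replicate 2 gave 11, the most, beside 7.10% of all genes. With both livers that stood apart for Cyp2b10 left out it was 13, with 9.48% of all genes below the same p. When any 1 liver was left out, 19 of the 33 differences turned or moved by over 1.5 times. The 8 with an unadjusted p under 0.05 were not among them. Without the acinar-high pair 12 differences turned or moved so far, and without the Cyp2b10 pair 13 did. The move is measured against a gene's own difference, which in the 8 was large for its SE, so it is no separate support for them.

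**Figure D1:**
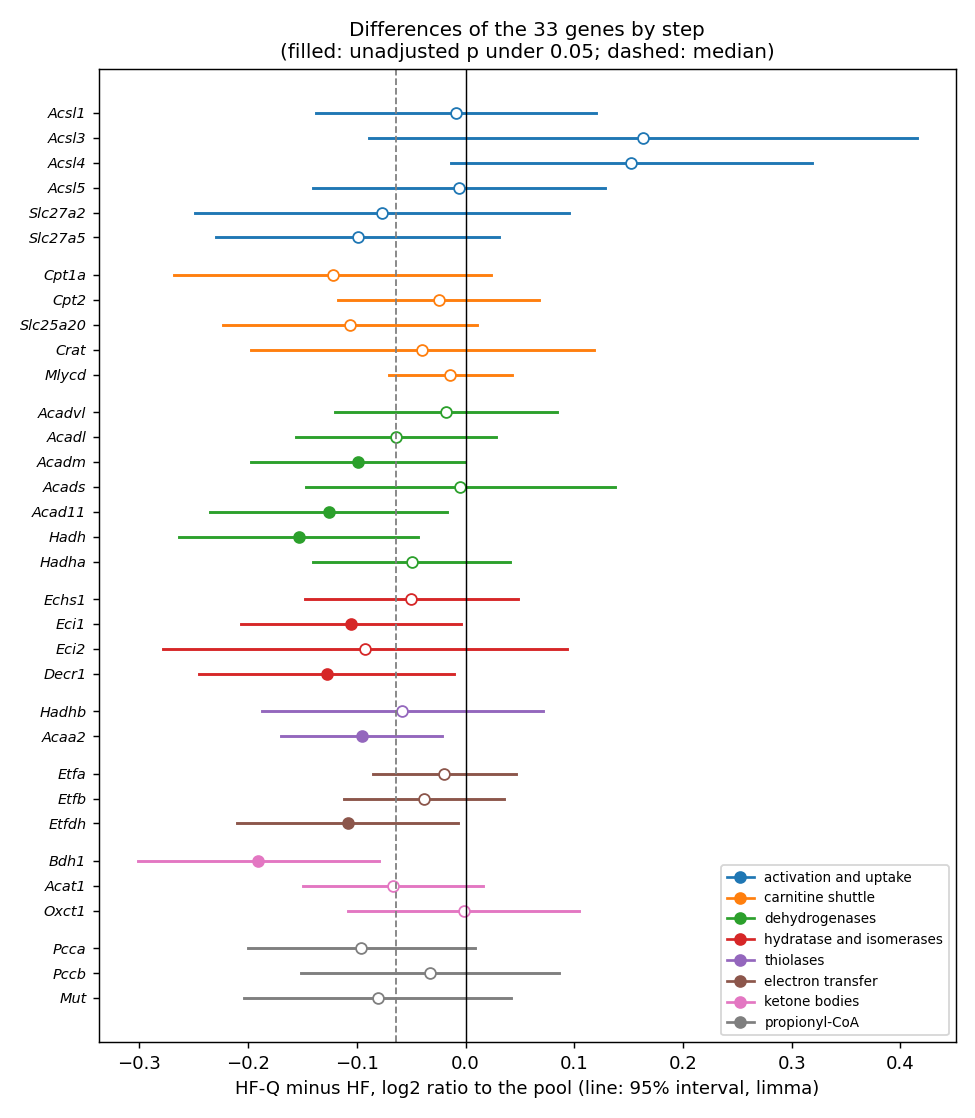
HF-Q minus HF difference in the log2 ratio to the pool (horizontal axis) for each of the 33 genes, grouped and coloured by step of the pathway, with the 95% interval from limma as a line. Filled points mark the 8 genes with an unadjusted p under 0.05, all left of 0, and the dashed line marks the median of -0.064.

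The mean over the 33 genes in each liver was -0.041 ± 0.034 in HF-Q and 0.015 ± 0.049 in HF livers (SD, n = 10 and 11), on the log2 scale relative to the pool. It spanned -0.0886 to 0.0079 in HF-Q livers, with a median of -0.045, and -0.040 to 0.1065 in HF livers, with a median of 0.0105. All 10 HF-Q livers lay below the HF median and all 11 HF livers above the HF-Q median, 6 HF-Q livers lay below every HF liver, and the groups overlapped. The highest liver was HF replicate 5, one of the 2 with raised acinar markers, where 2 of the 33 genes, Acsl1 and Slc27a2, had no usable spot. HF-Q minus HF was -0.081 within slide 1, -0.045 within slide 2 and -0.045 within slide 3. Without the 2 livers of raised acinar markers, the median difference over the 33 genes was -0.043, with 29 lower. Of the 33, 6 then had an unadjusted p under 0.05 in limma, beside 5.52% of all genes. The part of the acinar markers in the result was not tested further.

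**Figure D2:**
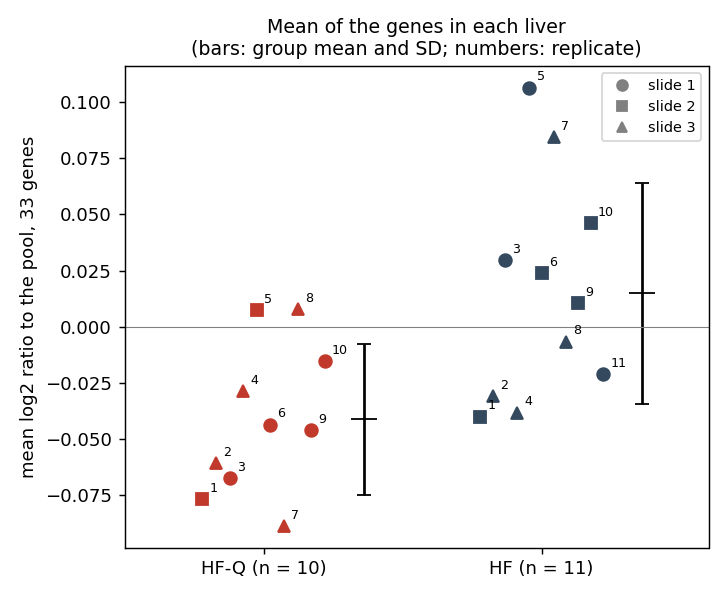
Mean log2 ratio to the pool over the 33 genes in each liver (vertical axis), HF-Q livers on the left and HF livers on the right, with the replicate number beside each point, the slide as its shape and the group mean with SD as a bar. The HF-Q livers lie between -0.0886 and 0.0079 and overlap the lower HF livers.

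Ketone body enzymes held the gene with the lowest p of the 33. Bdh1, the mitochondrial dehydrogenase that interconverts acetoacetate and 3-hydroxybutyrate, was measured by a probe at chr16:31457378-31457437 of build NCBI37 (mm9). Its log2 ratio to the pool spanned -0.37 to 0.068 with a median of -0.19 in HF-Q livers, and -0.14 to 0.28 with a median of 0.010 in HF livers. Of the HF-Q livers 6 lay below every HF liver, 9 lay below 0, and the highest was replicate 10. The difference was -0.19 ± 0.05 (SE), or 1.14 times lower in HF-Q, with an unadjusted p of 0.00167 and an adjusted p of 0.685 in limma, and it ranked at place 44 of all genes by p. The other Bdh1 probes differed by -0.14 and -0.085. Within slides 1, 2 and 3 the Bdh1 difference was -0.29, -0.097 and -0.20, and it stayed between -0.22 and -0.17 when any 1 liver was left out. Its adjusted p in limma was 0.31 without HF-Q replicate 10, the lowest of any member when 1 liver was left out.

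Acat1, the thiolase that joins and splits acetoacetyl-CoA, had log2 ratios of -0.28 to -0.053 (median -0.15) in HF-Q livers and of -0.24 to 0.090 (median -0.11) in HF livers. The groups overlapped over most of their range, and the difference of -0.066 ± 0.040 (SE) did not pass (unadjusted p = 0.111, limma). Oxct1, the transferase that lets tissues other than liver use ketone bodies, had a dim probe and a difference of -0.0017 ± 0.051 (SE), whose 95% interval ran from -0.11 to 0.10. Oxct1 was the 1 gene of these 3 that was higher in HF-Q, by 0.015, with median centring.

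All 7 dehydrogenases were lower in HF-Q, with a median of -0.064 on the log2 scale, and 3 of them at an unadjusted p under 0.05 in limma; with median centring Acadvl and Acads were higher instead. Hadh, the dehydrogenase of short and medium 3-hydroxyacyl-CoA (chr3:130936889-130936948, mm9), had log2 ratios of -0.37 to -0.067 (median -0.30) in HF-Q livers and of -0.46 to 0.016 (median -0.085) in HF livers. Of the HF-Q livers 9 lay below the HF median, while the lowest liver of all was HF replicate 11. Hadh differed by -0.15 ± 0.05 (SE, unadjusted p = 0.00822, adjusted p = 0.752, limma). With 1 liver left out its difference ran from -0.19, without HF replicate 11, to -0.14, without HF replicate 7.

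Acad11, a further member of the acyl-CoA dehydrogenase family (chr9:104029734-104029793, mm9), had log2 ratios of -0.23 to 0.053 (median -0.027) in HF-Q livers and of -0.23 to 0.22 (median 0.056) in HF livers. All 10 HF-Q livers lay below the HF median and 6 HF livers lay above every HF-Q liver, with the lowest livers of both groups nearly equal. The difference was -0.13 ± 0.05 (SE, unadjusted p = 0.0258, adjusted p = 0.809, limma), and -0.094 without the 2 livers of raised acinar markers. Within slides 1, 2 and 3 the Acad11 difference was -0.27, -0.11 and -0.049. Acadm, the medium-chain acyl-CoA dehydrogenase (chr3:153585670-153585729, mm9), had log2 ratios of -0.28 to 0.021 (median -0.16) in HF-Q livers and of -0.18 to 0.16 (median -0.11) in HF livers. Of the HF-Q livers 4 lay below every HF liver and 9 below 0. The Acadm difference was -0.099 ± 0.048 (SE, unadjusted p = 0.0491, adjusted p = 0.838, limma), and -0.18, -0.057 and -0.035 within slides 1, 2 and 3.

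Of the enzymes for longer chains, the very-long-chain acyl-CoA dehydrogenase Acadvl differed by -0.018 ± 0.049 and the long-chain enzyme Acadl by -0.064 ± 0.044 (SE). The short-chain enzyme Acads differed by -0.0047 ± 0.069 (SE), with HF-Q replicate 10 at 0.33 and the next HF-Q liver at 0.035. Hadha, the alpha subunit of the trifunctional protein, which carries its hydratase and long-chain 3-hydroxyacyl-CoA dehydrogenase, had log2 ratios of -0.21 to 0.069 (median -0.052) in HF-Q livers and of -0.24 to 0.14 (median -0.014) in HF livers. Its groups overlapped almost wholly, and the difference was -0.050 ± 0.044 (SE; unadjusted p = 0.268, limma).

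**Figure D3:**
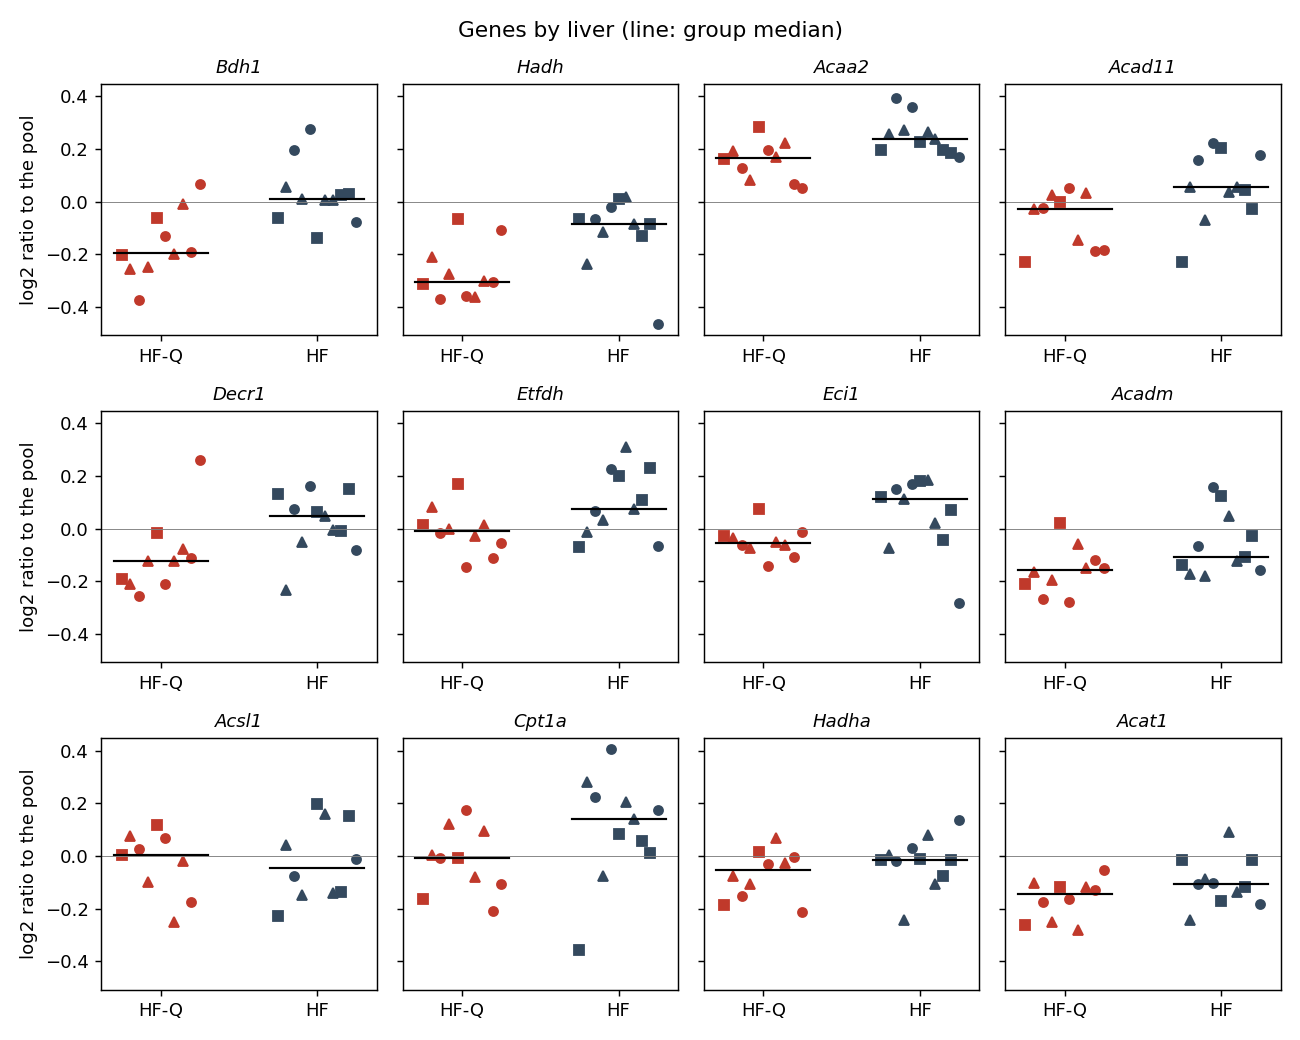
Log2 ratio to the pool (vertical axis) in each liver for 12 genes, HF-Q livers in red on the left and HF livers in dark blue on the right of each panel, with circles for slide 1, squares for slide 2, triangles for slide 3 and a line at the group median. The first 8 panels are the genes with an unadjusted p under 0.05, from Bdh1 to Acadm, and in every panel the groups overlap.

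The hydratase and the auxiliary enzymes for unsaturated chains were lower in 4 of 4 genes, with a median of -0.099; with median centring Echs1 was higher, by 0.017. Decr1, the 2,4-dienoyl-CoA reductase that removes double bonds (chr4:15846075-15846134, mm9), had log2 ratios of -0.25 to 0.26 (median -0.12) in HF-Q livers and of -0.23 to 0.16 (median 0.049) in HF livers. HF-Q replicate 10 was the highest liver of all, and the other 9 HF-Q livers lay below 0. Decr1 differed by -0.13 ± 0.06 (SE, unadjusted p = 0.0337, adjusted p = 0.810, limma). With 1 liver left out its difference ran from -0.17, without HF-Q replicate 10, to -0.11, without HF-Q replicate 3. It was -0.19 without the Cyp2b10 pair and -0.12 without the acinar-high pair. A second Decr1 probe, much dimmer, differed by -0.017 ± 0.053 (SE).

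Eci1, the isomerase that moves a double bond into the place the spiral can use (probe spanning chr17:24574515-24575912, mm9), had log2 ratios of -0.14 to 0.076 (median -0.054) in HF-Q livers and of -0.28 to 0.18 (median 0.11) in HF livers. All 10 HF-Q livers lay below the HF median, and the lowest liver was again HF replicate 11. The Eci1 difference was -0.11 ± 0.05 (SE; unadjusted p = 0.0426, adjusted p = 0.831, limma). Its relative Eci2 differed by -0.092 ± 0.090 and the short-chain enoyl-CoA hydratase Echs1 by -0.050 ± 0.048 (SE). Without the Cyp2b10 pair Echs1 was -0.10, and Eci2 was -0.027 without the acinar-high pair.

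Both thiolases were lower in HF-Q, and with median centring Hadhb, the beta subunit of the trifunctional protein, was higher by 0.0082. Acaa2, the medium-chain 3-ketoacyl-CoA thiolase and the brightest probe of the list, had log2 ratios of 0.050 to 0.28 (median 0.16) in HF-Q livers and of 0.17 to 0.39 (median 0.24) in HF livers. Of the HF-Q livers 6 lay below every HF liver, and all 11 HF livers lay above the HF-Q median. Acaa2 differed by -0.095 ± 0.036 (SE; unadjusted p = 0.0140, adjusted p = 0.773, limma). Its probe was printed on 10 spots of each array, whose median SD on an array was 0.036, against an SD between livers of 0.073 in HF-Q and 0.071 in HF. On slide 2 alone the Acaa2 difference was 0.022, against -0.20 on slide 1 and -0.092 on slide 3. With median centring the Acaa2 difference was -0.010 ± 0.12 (SE). Hadhb differed by -0.058 ± 0.062 (SE), and by -0.021 without HF replicate 6.

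Hadha and Hadhb are neighbours that are read in opposite directions: by the RefSeq table their starts lie at positions 30154980 and 30155253 of chromosome 5 (GRCm38.p6), with 272 bases between them. This stretch (chr5:30154981-30155252, plus strand) is 60.3% G and C, against a median of 52.4% in the 250 bases before all starts, and holds no AGGTCA. It is shown because it lies before the starts of both subunits of 1 enzyme.
Hadha and Hadhb: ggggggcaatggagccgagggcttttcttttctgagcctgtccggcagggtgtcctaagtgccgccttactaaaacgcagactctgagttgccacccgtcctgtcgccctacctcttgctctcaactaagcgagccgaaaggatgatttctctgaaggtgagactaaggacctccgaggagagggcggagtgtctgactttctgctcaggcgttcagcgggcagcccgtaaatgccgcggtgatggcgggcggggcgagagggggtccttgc

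Across the 21 livers, with the group means subtracted, Hadha and Hadhb correlated at r = 0.37 (unadjusted permutation p = 0.10) and rho = 0.41 (unadjusted permutation p = 0.067). Adjusted over the 406 pairs, the permutation p was 0.36 for r and 0.34 for rho. Their probes differ in brightness, and set beside each other the differences of the 2 subunits, -0.050 and -0.058, lay within 1 SE of each other.

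In electron transfer, Etfdh, the oxidoreductase that passes electrons to ubiquinone (chr3:79407806-79407865, mm9), had log2 ratios of -0.15 to 0.17 (median -0.0086) in HF-Q livers and of -0.071 to 0.31 (median 0.075) in HF livers. Of the HF livers 4 lay above every HF-Q liver and 2 HF-Q livers lay below every HF liver. The Etfdh difference was -0.11 ± 0.05 (SE; unadjusted p = 0.0378, adjusted p = 0.821, limma). The subunits of the flavoprotein itself, Etfa and Etfb, differed by -0.019 ± 0.032 and -0.038 ± 0.036 (SE), and both were higher in HF-Q with median centring, by 0.051 and 0.039. A second Etfa probe differed by 0.022 ± 0.032 (SE). Without the Cyp2b10 pair Etfb was -0.071 and Etfa -0.0056.

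The carnitine shuttle had 5 of 5 genes lower, a median of -0.040 and no gene at an unadjusted p under 0.05; with median centring 3 of them, Cpt2, Crat and Mlycd, were higher. Cpt1a, which makes acylcarnitine at the outer membrane and is the step inhibited by malonyl-CoA, had log2 ratios of -0.21 to 0.17 (median -0.0087) in HF-Q livers and of -0.36 to 0.40 (median 0.14) in HF livers. Of the HF-Q livers 9 lay below the HF median, while the lowest and the highest livers of all were HF replicates 1 and 5. Cpt1a differed by -0.12 ± 0.07 (SE; unadjusted p = 0.0969, adjusted p = 0.886, limma), by -0.15 with slide as a block and by -0.081 without the 2 livers of raised acinar markers. Its 10 spots on an array had a median SD of 0.030, against an SD between livers of 0.12 in HF-Q and 0.20 in HF, and a second, dimmer probe differed by -0.048 ± 0.080 (SE).

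Slc25a20, the translocase that exchanges acylcarnitine for carnitine across the inner membrane, differed by -0.11 ± 0.06 (SE; unadjusted p = 0.0719, limma). Cpt2, which returns the acyl group to CoA in the matrix, differed by -0.025 ± 0.045 (SE), while its second, dimmer probe differed by 0.11 ± 0.06 (SE). Crat, the carnitine transferase for short chains, differed by -0.040 ± 0.076 (SE), on the 1 probe of the list that was not above background on every array. Mlycd, which clears malonyl-CoA, differed by -0.014 ± 0.028 (SE), with the smallest SD between livers of the list at 0.039 in HF-Q and 0.045 in HF.

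In activation 4 of 6 genes were lower and the median was -0.0075, whereas with median centring 5 of 6 were higher, as Acsl1, Acsl5 and Slc27a2 turned. The mean over the 6 was 0.0090 ± 0.093 in HF-Q and -0.018 ± 0.10 in HF livers (SD, n = 10 and 11), so the mean ran opposite to the median. Acsl1, the main long-chain acyl-CoA synthetase of liver, had log2 ratios of -0.25 to 0.12 (median 0.0045) in HF-Q livers and of -0.23 to 0.20 (median -0.044) in HF livers, with a value missing in 1 liver of each group. The groups overlapped throughout, and the difference was -0.0090 ± 0.062 (SE; unadjusted p = 0.886, limma), with a 95% interval of -0.14 to 0.12. Acsl3 and Acsl4, a synthetase of lipid droplets and one that prefers arachidonic acid, were the 2 genes of the list that were higher in HF-Q, by 0.16 ± 0.12 and 0.15 ± 0.08 (SE; unadjusted p = 0.193 and 0.0703, limma). Acsl4 in HF-Q replicate 10 lay at -0.45, with the next HF-Q liver at -0.11, and its difference was 0.20 without that liver. Acsl5 differed by -0.0059 ± 0.065 (SE). Of the solute carriers with acyl-CoA synthetase activity, Slc27a2 differed by -0.077 ± 0.083 and Slc27a5 by -0.099 ± 0.063 (SE), and the second Slc27a5 probe differed by -0.096. Without HF-Q replicate 7 they were -0.036 and -0.053, and without HF replicate 1 Slc27a2 was -0.12.

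Odd-numbered chains leave a last unit of propionyl-CoA, which the carboxylase subunits Pcca and Pccb and the mutase Mut carry to succinyl-CoA. All 3 genes were lower in HF-Q, with differences of -0.096 ± 0.051 for Pcca, -0.033 ± 0.057 for Pccb and -0.081 ± 0.059 for Mut (SE), with Pcca nearest to the unadjusted threshold at p = 0.0703 in limma. Without HF-Q replicate 7 Mut was -0.043 and Pccb -0.010. Mean log2 ratios of the 3 were lowest in HF-Q replicate 7, at -0.25, against -0.091 in the next HF-Q liver.

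Single genes of the list varied between livers of 1 group about as much as genes in general, with a median SD within groups of 0.12, against 0.13 for all genes. Over the 29 genes with a value in every liver, the 406 pairwise correlations across the 21 livers, with group means subtracted, had a median of 0.10, and 61.6% were above 0. Centred within group and slide, the median was 0.14. The same genes set against 19201 others had a median of -0.00043. Livers share an array's normalization with all their genes, so these correlations are given as a description.

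The pairs named below were picked from the 406 for a low permutation p, so they lie far from that median by choice. That p tests against no correlation and does not set aside the normalization an array shares among its genes. Hadh and Eci1 correlated most, at r = 0.88 (adjusted permutation p = 0.0027 over the 406 pairs) and rho = 0.81 (adjusted permutation p = 0.0068), and within slides 1 to 3 at r = 0.92, 0.79 and 0.78. Both were lowest in HF replicate 11, and r was 0.75 without the 2 livers farthest from the median of Hadh. Cpt1a and Acad11 followed at r = 0.87 (adjusted permutation p = 0.0020) and rho = 0.81 (adjusted permutation p = 0.0068), with within-slide values of 0.93, 0.88 and 0.78, and 0.77 without the 2 farthest livers. Echs1 and Pcca, whose promoters are printed above, correlated at r = 0.84 (adjusted permutation p = 0.0020) and rho = 0.71 (adjusted permutation p = 0.025), and at 0.91, 0.82 and 0.86 within slides. Without the 2 farthest livers their r was 0.74.

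Slc25a20 and Decr1 correlated at r = 0.79 (adjusted permutation p = 0.0030) and rho = 0.78 (adjusted permutation p = 0.0068), and at 0.80, 0.66 and 0.86 within slides. Acadl and Hadhb, which both act on long chains, reached r = 0.77 (adjusted permutation p = 0.0057) and rho = 0.79 (adjusted permutation p = 0.0071), with 0.83, 0.81 and 0.71 within slides. Acadm and Etfdh, a dehydrogenase and the acceptor at the end of its electron path, reached r = 0.73 (adjusted permutation p = 0.010) and rho = 0.68 (adjusted permutation p = 0.030), with 0.77, 0.77 and 0.73 within slides. Without the 2 farthest livers r was 0.70, 0.74 and 0.71 for these 3 pairs. In all, 12 of the 406 pairs had an adjusted permutation p under 0.05 by Pearson's r, all positive. By Spearman's rho 11 positive and 2 negative pairs did, and 7 pairs did by both. How many pairs of genes outside the list reach such a p was not tested, so these counts describe the list only. Beside the pairs above, Slc25a20 and Etfb passed by both, at r = 0.65 (adjusted permutation p = 0.044) and rho = 0.73 (adjusted permutation p = 0.017). Within slides 1 to 3 the r of Slc25a20 and Etfb was 0.95, 0.41 and 0.75, and 0.56 without the 2 farthest livers. The negative pairs were Etfb and Mut, at rho = -0.74 (adjusted permutation p = 0.016) and r = -0.56 (adjusted permutation p = 0.095), and Acsl5 and Eci2, at rho = -0.69 (adjusted permutation p = 0.026) and r = -0.63 (adjusted permutation p = 0.056). Within slides 1 to 3 their r was -0.83, -0.67 and -0.35 for Etfb and Mut, and -0.76, -0.57 and -0.69 for Acsl5 and Eci2. Without the 2 farthest livers it was -0.50 and -0.72.

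**Figure D4:**
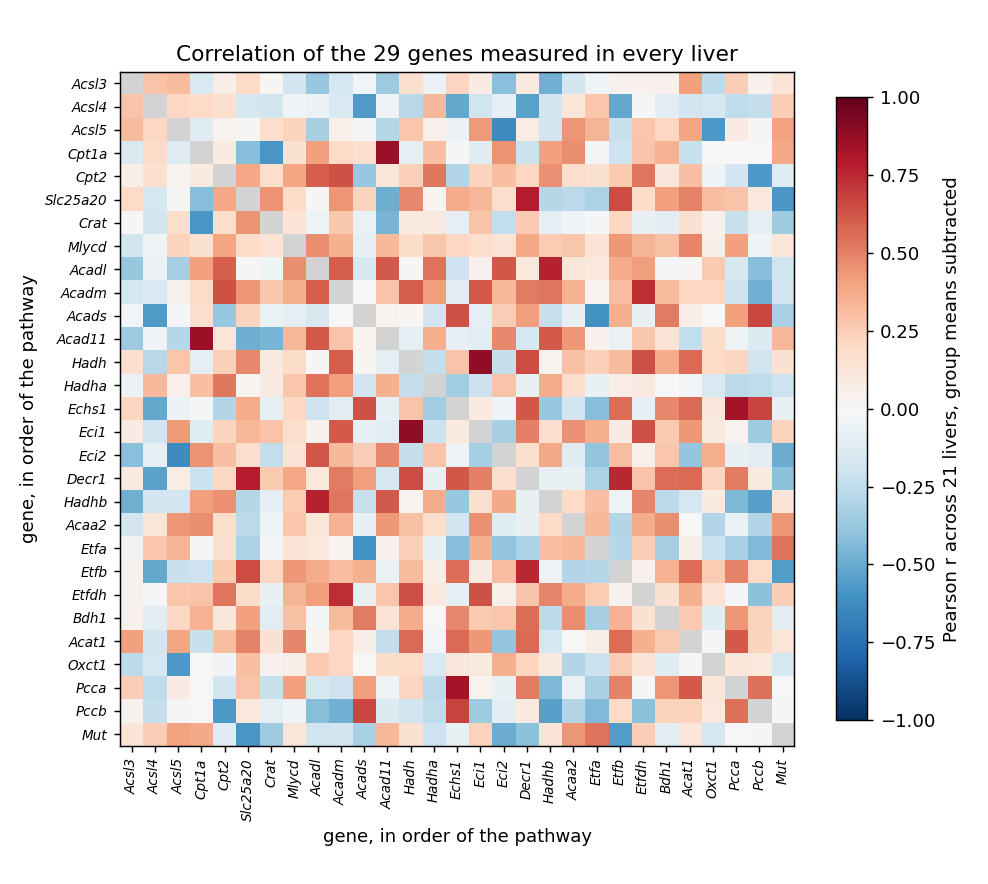
Pearson correlation between pairs of the 29 genes with a value in every liver, across 21 livers with group means subtracted, from blue at -1 to red at 1, with genes in pathway order on both axes. Single deep red cells, such as Hadh with Eci1 at 0.88 and Cpt1a with Acad11 at 0.87, stand in a field whose median is 0.10.

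A wider list of 31 genes of the same metabolism (regulators, malonyl-CoA and carnitine supply, other acyl-CoA enzymes, further propionyl-CoA and ketone body genes) was measured beside the 33. None had an adjusted p under 0.05 in limma, 22 were lower and 9 higher in HF-Q, the median was -0.043, and 3 had an unadjusted p under 0.05, all lower. That is 71.0% lower and 9.68% under that p, against 53.0% and 5.93% of all genes. Ppara, the gene of the receptor named above, had log2 ratios of -0.69 to 0.14 (median -0.059) in HF-Q livers and of -0.35 to 0.36 (median 0.11) in HF livers. The groups overlapped, and the difference was -0.23 ± 0.10 (SE; unadjusted p = 0.0376, adjusted p = 0.821, limma). Gcdh, the glutaryl-CoA dehydrogenase of lysine breakdown, differed by -0.12 ± 0.05 (SE; unadjusted p = 0.0220, adjusted p = 0.790, limma). The coactivators Ppargc1a and Ppargc1b differed by -0.077 ± 0.10 and -0.032 ± 0.11 (SE).

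**Figure D5:**
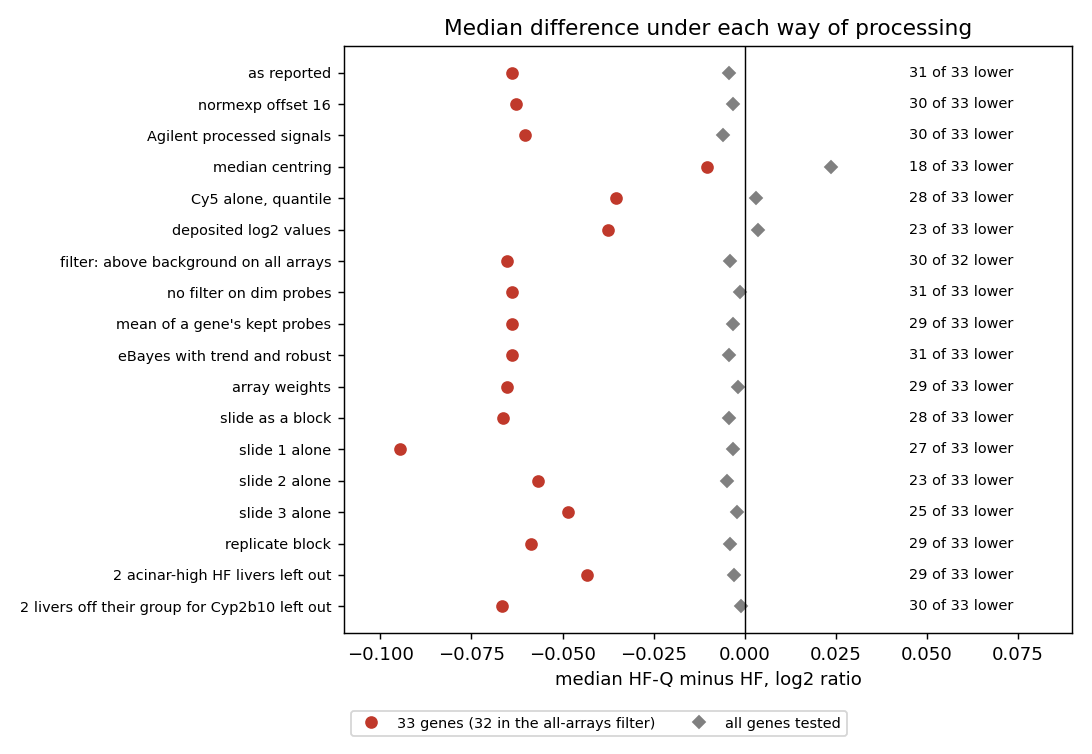
Median HF-Q minus HF difference (horizontal axis, log2 ratio) over the 33 genes in red and over all genes tested in grey, under the processing reported here and 17 other settings, with the count of lower genes at the right. The red points lie between -0.095 and -0.010, left of the grey point in every setting, and the count of lower genes spans 18 to 31.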

How the data were processed

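Liver RNA of 21 mice was measured on 2-colour Agilent mouse arrays. The authors deposited scanner output with the raw mean and local background intensity of each spot, beside a processed intensity and quality flags, per the file headers. The software was Agilent Feature Extraction 10.7.3.1, per the submitters' processing notes. A deposited table of log2 values follows the Cy5 channel (r = 0.985 to 0.999), every column with a median of 7.92, and how the columns were scaled is not known here.

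In limma 3.58.1 (R 4.3.3), normexp with an offset of 50 corrected the background and loess normalized the log2 ratio of Cy5 to Cy3 array by array, with control and outlier spots at weight 0. The offset shrinks ratios of dim probes. Spots of a probe were averaged, and a probe was kept if well above background in Cy5 on at least 10 of 21 arrays. A gene was read from its brightest probe, leaving 26291 probes and 19718 genes. Of the 33 genes, 32 were above background on all arrays, none was saturated, 7 had several probes, and 6 single values were missing. Coordinates of probes come from the array files (NCBI37, mm9), and exon or UTR annotation was not used here.

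HF-Q minus HF was tested with limma, two-sided, and p-values were adjusted by Benjamini-Hochberg across the 19718 genes, with 0.05 as threshold. Correlations used 100000 permutations of livers, adjusted over 406 pairs. The members and lists were chosen with earlier results of these data known, so list medians and counts are descriptions without a test. Every gene was named with its difference. Values by liver were given for genes with an unadjusted p under 0.05 and for Acsl1, Cpt1a, Acadm, Hadha, Etfdh, Bdh1 and Acat1. The test was tested on simulated data, whose outcome is not reported here and lends the values above no support. Some genes of the wider list are not reported here by name but stayed in the counts. Alternatives changed background correction, scaling, filter, probe choice, variance model and blocks, and left out each liver in turn. The number of arrays limits the precision.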

Additional observations from a re-analysis of the deposited data

Results flagged for a closer look

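In 42 series of HF-Q values searched (each gene and list mean, with 9 or 10 livers), 5 had 1 liver that stood apart. Its gap to the nearest other liver was large against the group's range, and chance marks about 1 in 20 series. HF-Q replicate 10 was that liver for 4 genes: Acsl4 at -0.4486, Acads at 0.335, Echs1 at 0.3832 and Decr1 at 0.2623, on the log2 scale. Without it the HF-Q minus HF differences were 0.20, -0.049, -0.086 and -0.17 in that order of genes, and none had an adjusted p under 0.05 in limma. HF-Q replicate 10 is also the liver on the HF side for Cyp2b10. HF-Q replicate 7 had the lowest mean of the 3 propionyl-CoA genes, at -0.2497. The search was run on HF-Q livers only, and HF livers were not searched.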

How the results depend on the processing

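No member passed the threshold under any of the settings run. All 8 genes with an unadjusted p under 0.05 kept their lower sign under every setting that used all slides. With median centring their differences shrank, to -0.12 ± 0.12 for Bdh1 and -0.092 ± 0.11 for Hadh (SE). Acad11 was then -0.057 ± 0.12 and Decr1 -0.054 ± 0.12 (SE). Etfdh was -0.044 ± 0.11, Eci1 -0.038 ± 0.11, Acadm -0.029 ± 0.11 and Acaa2 -0.010 ± 0.12 (SE). None of these 8 differences was larger than its SE. With median centring the members' median was -0.010, 18 were lower and 23 of the 33 lay below the median of all genes. None then had an unadjusted p under 0.05 in limma, beside 1.21% of all genes, against 5.93% as reported. The cause was not tested. With any 1 liver left out, the median ran from -0.079 to -0.050 and 28 to 31 members were lower. Between 3 and 11 members then had an unadjusted p under 0.05 in limma, beside 4.52% to 7.83% of all genes. Acsl1 then ran from -0.032 to 0.019, Acsl5 from -0.034 to 0.023, Acadvl from -0.039 to 0.00061, Acads from -0.049 to 0.026 and Oxct1 from -0.024 to 0.019. Leaving out the 2 livers of raised acinar markers, or the 2 off their group for Cyp2b10, was chosen after seeing the data. Without the Cyp2b10 pair 18 genes passed in limma, none of them a member, 13 members had an unadjusted p under 0.05, against 9.48% of all genes, and the lowest adjusted p of a member was 0.0801, for Decr1. No pairing of livers by replicate number showed in their correlations. Of 10 shared numbers 1 pair correlated above 0.1 (r = -0.34 to 0.16), and none correlated best with its own number. Low correlations cannot show that the mice were unpaired. With the replicate block the median was -0.059, with 29 lower. Of the members, 9 then had an unadjusted p under 0.05 in limma, beside 5.73% of all genes.

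Members lower as reported were higher in HF-Q in these settings, by the log2 values given, and the cause was not tested. With a normexp offset of 16 it was Oxct1 (0.000314). With Agilent's processed signals it was Crat (0.056). With median centring they were Acsl1 (0.083), Acsl5 (0.049), Slc27a2 (0.016), Cpt2 (0.038), Crat (0.013), Mlycd (0.050), Acadvl (0.061), Acads (0.038), Echs1 (0.017), Hadhb (0.0082), Etfa (0.051), Etfb (0.039) and Oxct1 (0.015). With Cy5 alone they were Slc27a2 (0.013), Slc27a5 (0.0073) and Crat (0.26). With the deposited log2 values they were Acsl5 (0.032), Cpt2 (0.0058), Crat (0.059), Mlycd (0.027), Acadvl (0.018), Etfa (0.020), Etfb (0.0063) and Oxct1 (0.0092). With the mean of a gene's probes they were Cpt2 (0.042) and Etfa (0.00147). With array weights they were Acsl1 (0.00166) and Acsl5 (0.0062). With slide as a block they were Acsl1 (0.000871), Acsl5 (0.0026) and Oxct1 (0.000699). On slide 1 alone they were Acsl1 (0.017), Etfa (0.018), Acat1 (0.000868) and Oxct1 (0.030). On slide 2 alone they were Acsl1 (0.065), Acsl5 (0.14), Cpt2 (0.030), Crat (0.043), Acadvl (0.013), Acads (0.075), Acaa2 (0.022) and Mut (0.027). On slide 3 alone they were Mlycd (0.027), Acadvl (0.087), Acadl (0.023), Hadha (0.032), Eci2 (0.052) and Oxct1 (0.039). With replicate numbers as a block they were Acadvl (0.0096) and Acads (0.011). With the acinar-high HF livers left out they were Acadvl (0.013) and Acads (0.018). With the Cyp2b10 livers left out it was Acsl5 (0.012).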
